A study of Sus scrofa with 4 samples.

Results

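RAB GTPases are the small GTP-binding proteins that label intracellular membranes and recruit the machinery of vesicle budding, transport, tethering and fusion. The genes described here are the rows of a comparison table of pig aortic valve interstitial cells whose symbols name a RAB, a TBC1D protein, RABGAP1, RABGAP1L, RABEP1, RABEP2, RABEPK, RABGEF1, RABAC1, RIN1 to RIN3, a GDI, CHM or CHML. This choice of symbols was made with earlier results of these data known. Within it rows were taken by symbol alone, and 105 of the 14804 rows matched. They comprise 53 RAB GTPases, 33 GTPase-activating proteins (GAPs), 6 exchange factors (GEFs), 8 effectors or binding partners, and 5 genes of RAB prenylation and membrane extraction. The symbol rule also takes in genes that are named after a RAB without being one, among them RAB3GAP1, RAB3GAP2, RAB3IP, RAB3IL1 and the RAB11FIP genes.

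The cells were primary cultures of aortic valve interstitial cells of the pig (Sus scrofa), the fibroblast-like cells of the valve leaflet, profiled as droplet single-cell RNA libraries aimed at about 2000 cells each. The NO donor library came from cells given the nitric oxide donor detaNONOate at 150 µM for 5 days, and the control library from cells kept in culture for 5 days without it. Libraries of NO donor withdrawal and of S-nitrosoglutathione were not analysed here. The labels give 1 library per group, and no number of animals or cultures behind a library is given in the sources used here. The table gives 3 columns per library, with no cell by cell values. Nothing in the sources used here says how the columns arose, so each set of 3 was treated as pieces of a single library. With nothing replicated the treatment itself could not be tested, and the differences below describe these libraries.

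As background, a RAB cycles between a GDP-bound form held in the cytosol and a GTP-bound form on a membrane. GEFs load GTP at the target membrane, GAPs of the TBC domain family trigger GTP hydrolysis, and effectors such as tethers, motors and adaptors bind the GTP form. Escort proteins (CHM and CHML) present each new RAB to the geranylgeranyl transferase, which attaches lipids to cysteines at its end, and GDP dissociation inhibitors (GDIs) such as GDI2 later extract the GDP form. In fibroblast-like cells these routes carry procollagen and other matrix proteins out of the cell and move integrins and growth factor receptors through endosomes.

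The cysteines that take up the lipid anchor are encoded at the very end of each RAB coding sequence, and they are the feature on which the escort proteins, the transferase and the GDIs act in common. The last 30 coding bases, stop codon included, are given for the 6 RAB GTPases that differed by at least 2-fold between the libraries and for the RAB5 and RAB11 paralogues, which lay on both sides of the control at the scaling of the table. They are written 5′ to 3′ from the RefSeq annotation of Sscrofa11.1, with in-frame cysteine codons in capitals.
RAB29: aagcccacctccagctggaccTGCTGCtaa
RAB31: cacctgcagggcggccggcggTGCTGCtga
RAB4A: gccccaagtgctcaggagTGCggcTGTtga
RAB42: aagcagcatccgggcccaTGCcagTGTtga
RAB30: agctatttgactTGTTGTaatttcaactga
RAB37: ataccgaatgatatcgaaagggcaccataa
RAB5A: ccaaccaggagtcagTGTTGTagtaactaa
RAB5B: cagaacaagagccagTGTTGTagcaactga
RAB5C: gccagccggagccagTGCTGCagcaactga
RAB11A: ccaaaggtgcagTGCTGTcagaacatataa
RAB11B: aacaagctgcagTGCTGCcagaacctgtga
These ends lie at chr9:66451141-66451170 (minus strand), chr6:98281901-98281930 (minus), chr14:60488162-60488191 (minus), chr6:85604886-85604915 (plus), chr9:17129691-17129720 (minus), chr12:6485666-6485695 (minus), chr13:6938808-6938837 (plus), chr5:21390165-21390194 (plus), chr12:20635119-20635148 (plus), chr1:163887712-163887741 (plus) and chr2:70885361-70885390 (minus). RAB29 and RAB31 end in paired cysteine codons, whereas RAB4A and RAB42 have another codon between them. The 3 RAB5 genes share a cysteine pair followed by further codons, so their ends do not separate RAB5A from RAB5C. The RAB37 model used, a predicted one of 906 coding bases, ended without such a codon.

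Over all 53 RAB genes, 14 models ended in a cysteine pair, 17 had a cysteine in the final codon and in the third from the end, 11 had a pair 1 to 3 codons before the end and 9 had a cysteine in the fourth codon from the end with no other after it. The median log2 ratio was 0.09 over the 12 measured genes of the first form, −0.39 over 11 of the second, 0.47 over 9 of the third and −0.12 over 8 of the fourth. The ranges of the forms overlapped widely, from −1.23 to 1.57 in the first and from −1.99 to 0.97 in the third.

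The libraries held 21289316 counts for the NO donor, with 7064703 to 7151367 per column, and 21807024 for the control, with 6486628 to 8067661 per column. Normalized counts of a column are its counts divided by its size factor in the deposited table, and the level of a library is its summed counts over its summed size factors. They are not divided by transcript length, so they are compared between libraries and not between genes. Each log2 ratio is the NO donor level over the control level, with an exact 95% interval that covers counting error only. At total count scaling every log2 ratio is 0.60 larger, so that 23 members with a negative log2 ratio had a positive one. All 12 listed valve interstitial markers had counts in both libraries, and 11 of them were at least 2-fold lower in the NO donor library, with PDGFRB as the exception at a log2 ratio of 0.04. Their summed level was 47241 to 49561 over the NO donor columns and 222373 to 226171 over the control columns. Of the 8 endothelial and 8 leukocyte markers, 2 and 3 had counts, led by PECAM1 at 210 with the NO donor and 326 for the control, and by CD14 at 151 with the NO donor and 160 for the control. The 6 smooth muscle markers were all at least 2-fold lower in the NO donor library, beside the same 17.9% of all genes, and DES had 0 counts there. No epithelial marker of 5 had a row, and 2 of 5 cardiomyocyte markers did, at summed levels of 10.1 with the NO donor and 28.1 for the control. Whether these shifts have a part in the results below was not tested. In bulk sums such as these, fewer cells of a type and less RNA per cell cannot be told apart.

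Most of the RAB genes and their regulators differed by less than 2-fold between the libraries. TBC1D2, RAB29, RAB11FIP3 and RAB3GAP1 were at least 2-fold higher in the NO donor library, and RAB30, RAB42, RAB4A, RAB37, RAB31, TBC1D2B, TBC1D8B and TBC1D16 were at least 2-fold lower. A minimum mean of 10 normalized counts over the 6 columns was passed by 91 of the 105 members. Of these, 4 were at least 2-fold higher in the NO donor library, where 12.4% of all 11505 genes past the minimum were, and 8 were at least 2-fold lower, where 17.9% of all genes were. In either direction 13.2% of the members passed 2-fold, against 30.2% over all genes. At a size of 0.5 log2 units 21 were higher and 24 lower, where 28.4% and 29.9% of all genes were. At TMM scaling 5 were at least 2-fold higher and 8 lower, beside 13.4% and 17.1% of all genes. The interquartile range of the members ran over log2 ratios from −0.57 to 0.47, against −0.67 to 0.58 for all genes, and the median was 0.02 for both. No member past the minimum lay outside −1.99 to 1.69, while all genes ran from −9.99 to 10.99. At total count scaling 26 members were at least 2-fold higher and 2 lower, 28.6% and 2.20%, against 32.5% and 10.0% of all genes, and in either direction 30.8% of members against 42.5% of all genes. Higher genes made up 33.3% of the members past 2-fold at the size factors of the table, against 40.9% over all genes. At total count scaling they made up 92.9%, against 76.5% over all genes. At the size factors the 42 measured RAB GTPases had a median of −0.12, with 1 higher and 5 lower (2.38% and 11.9%). The 49 measured regulators and effectors had a median of 0.20, with 3 in each direction (6.12% each). These shares lay under the 12.4% and 17.9% of all genes. At total count scaling the RAB GTPases had 9 higher and 2 lower (21.4% and 4.76%) and a median of 0.47. The regulators and effectors had 17 higher and 0 lower (34.7% and 0%) and a median of 0.79, beside 32.5% and 10.0% of all genes. Together the measured members took 0.462% of counts with the NO donor and 0.344% for the control.

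**Figure D1:**
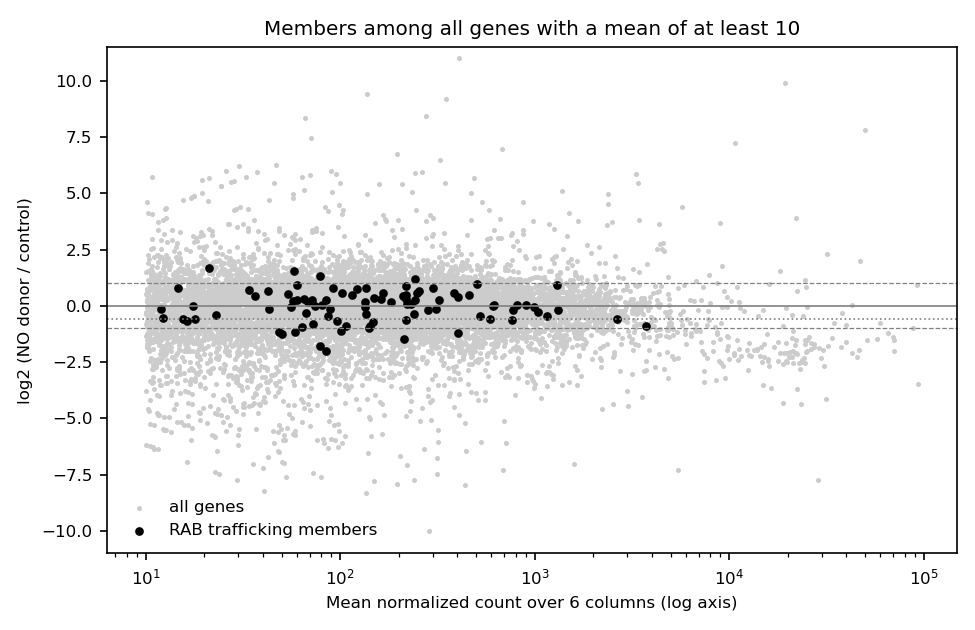
Log2 ratio of NO donor over control (vertical axis) against the mean normalized count over 6 columns (horizontal log axis) for the 11505 genes with a mean of at least 10, with the 91 members in black. Dashed lines mark 2-fold, the solid line marks equal levels at the size factors of the table and the dotted line marks equal levels at total count scaling; the members lie between −1.99 and 1.69.

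The 3 columns of a library lay close together for most members. The chi-square spread of the columns over that of Poisson counting had a median of 0.896 with the NO donor and 0.592 for the control, with the largest values at 5.32 for RAB3A in the NO donor library and 4.66 for RAB3B in the control. The NO donor and control columns did not overlap for 65 of the 91 members, 71.4%, where 78.9% of all genes had no overlap. Of these members 32 lay above the control columns and 33 below, where 40.0% and 38.9% of all genes did. At the size factors of the table the 95% counting interval lay above 0 for 32 members, below 0 for 32 and included 0 for 27. The share over all genes is not given for these intervals, which move up with the log2 ratios at total count scaling.

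Among the measured early endosome RABs, RAB5A, RAB21, RAB22A and RAB5B had more counts in the NO donor library, while RAB4A, RAB31 and RAB5C had fewer. Of the 7 measured genes of this class 2 were at least 2-fold lower, 28.6% against 17.9% of all genes. None reached 2-fold higher at the size factors of the table, 0% against 12.4%, and the median log2 ratio was 0.47. At total count scaling 4 were at least 2-fold higher, 57.1% against 32.5% of all genes, and none lower, 0% against 10.0%. The median at that scaling was 1.07. RAB5A, which directs fusion of early endosomes (chromosome 13, 6905302 to 6940165), had normalized counts of 1725, 1620 and 1777 in the NO donor columns, against 907, 883 and 939 in the control columns. Every NO donor column lay well above every control column, and the log2 ratio was 0.91 (0.84 to 0.98). RAB5C, its paralogue on chromosome 12 from 20613991 to 20635952, had 605, 618 and 595 in the NO donor columns, against 954, 917 and 929 in the control columns. Here every NO donor column lay below the control columns, with a log2 ratio of −0.62 (−0.71 to −0.54), which became −0.03 at total count scaling, where the libraries were level. RAB5B, the other paralogue, was 537 with the NO donor and 387 for the control, giving a log2 ratio of 0.47 (0.36 to 0.58). RAB21, which acts in integrin endocytosis, had 696, 619 and 701 in the NO donor columns, against 355, 344 and 333 in the control columns. Its columns did not overlap either, and its log2 ratio of 0.97 (0.86 to 1.08) lay just inside 2-fold at the size factors of the table. RAB22A, another endosomal RAB, had a log2 ratio of 0.56 (0.40 to 0.71).

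RAB4A, which returns receptors quickly from early endosomes to the cell surface (chromosome 14, 60481484 to 60528549), had normalized counts of 111, 118 and 114 in the NO donor columns, against 311, 299 and 331 in the control columns. The groups were far apart, at 2.74-fold (2.43 to 3.10) lower in the NO donor library, and the gene stayed lower at total count scaling, with a log2 ratio of −0.86. RAB31, which acts between the trans-Golgi network and endosomes (chromosome 6, 98278644 to 98385857), had 245, 253 and 225 in the NO donor columns, against 585, 564 and 551 in the control columns. It was 2.34-fold (2.15 to 2.55) lower, or −0.63 in log2 ratio at total count scaling. RAB20 was under the minimum, at 4 counts with the NO donor and 36 for the control, and had a log2 ratio of −3.73 (−5.68 to −2.25). RAB4B, also under the minimum, had 10 counts with the NO donor and 13 for the control.

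The symbol rule takes in several GEFs and binding partners of RAB5. RABGEF1 (rabex-5), a GEF of RAB5, was 312 with the NO donor and 196 for the control, giving a log2 ratio of 0.67 (0.52 to 0.83). RIN2 and RIN3, also GEFs of the RAB5 group, had log2 ratios of 0.57 (0.38 to 0.76) and 0.77 (0.11 to 1.47), and RIN1 had 0.20 (−0.12 to 0.52). The RIN3 columns of both libraries overlapped, at 14.7, 25.2 and 15.6 in the NO donor columns, against 14.8, 9.72 and 8.64 in the control columns. The effectors RABEP1 and RABEP2 (rabaptins), which bind RAB5 and RABGEF1, had 0.38 (0.26 to 0.50) and 0.67 (0.29 to 1.06). None of these reached 2-fold at the size factors of the table, and at total count scaling the log2 ratios ran from 0.79 for RIN1 to 1.37 for RIN3. Among the other GEFs, RAB3IL1 had −0.59 (−1.16 to −0.01; 0.01 at total count scaling), while RAB3IP (rabin8), a GEF of RAB8, had 12 counts with the NO donor and 1 for the control, below the minimum.

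**Figure D2:**
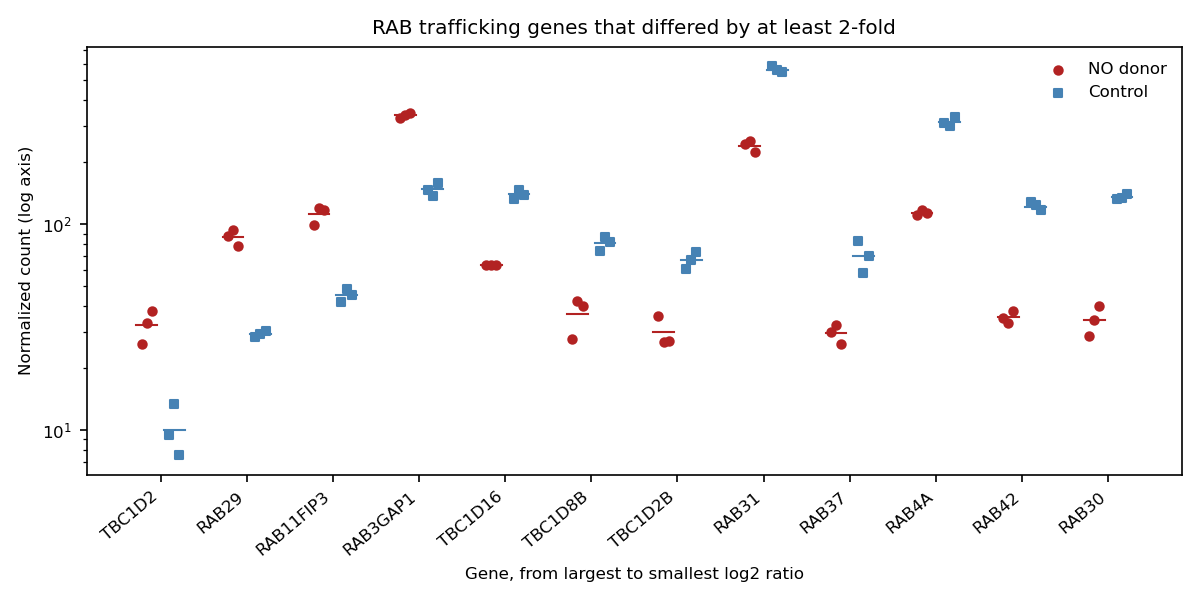
Normalized counts (vertical log axis) of the 12 members that differed by at least 2-fold, for the 3 NO donor columns (circles) and the 3 control columns (squares), with a line at each library's level. The columns of the libraries are separate for each of the 12 genes, which were picked on ratios from these same columns. Over all genes 78.9% had no overlap. Of the 12 genes 4 were higher and 8 lower in the NO donor library, beside 12.4% and 17.9% of all genes.

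In the recycling class, RAB11A and RAB11B, the paralogues of the recycling endosome, lay on opposite sides of the control at the size factors of the table. RAB11A had normalized counts of 388, 392 and 359 in the NO donor columns, against 210, 227 and 220 in the control columns, a log2 ratio of 0.79 (0.65 to 0.94). RAB11B had 449, 481 and 485 in the NO donor columns, against 732, 716 and 694 in the control columns, a log2 ratio of −0.59 (−0.69 to −0.50) that became 0.00 at total count scaling. The RAB11 effectors, which link the recycling endosome to motors and tethers, were led by RAB11FIP3 (chromosome 3, 41211683 to 41284998), with 99.4, 120 and 118 in the NO donor columns, against 41.7, 48.6 and 45.4 in the control columns. Its columns were separate and it was 2.48-fold (2.01 to 3.08) higher. RAB11FIP1 and RAB11FIP5 had log2 ratios of 0.49 (0.26 to 0.72) and 0.46 (0.29 to 0.62), and RAB11FIP2 had 0.06 (−0.21 to 0.32), with overlapping columns. RAB11FIP4 was below the minimum at 24 counts with the NO donor and 16 for the control.

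The other RABs of this class past the minimum lay within 0.5 log2 units of the control at the size factors of the table. RAB10 and RAB14, which act in delivery to the plasma membrane, had log2 ratios of 0.02 (−0.06 to 0.09) and 0.02 (−0.08 to 0.11). RAB8A and RAB8B, which act in delivery to the cell surface and the cilium, had 0.18 (−0.02 to 0.39) and 0.35 (0.15 to 0.54), and RAB35 had 0.10 (−0.06 to 0.25). RAB13, an exocytic RAB of epithelial junctions, was 968 with the NO donor and 1339 for the control, giving a log2 ratio of −0.47 (−0.54 to −0.40), or 0.13 at total count scaling. Of the 8 measured genes of the class none passed 2-fold at the size factors of the table, where 12.4% of all genes were higher and 17.9% lower. At total count scaling RAB11A did, at 1.39, which made 12.5% higher against 32.5% of all genes. None was lower there, 0% against 10.0%.

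Among the ER and Golgi RABs the lowest ratio was that of RAB30, a Golgi RAB (chromosome 9, 17124181 to 17222741), with normalized counts of 28.5, 34.1 and 40.3 in the NO donor columns, against 133, 134 and 140 in the control columns. It was 3.97-fold (3.23 to 4.91) lower, the largest decrease of a member past the minimum, and one of the 2 that stayed at least 2-fold lower at total count scaling, with a log2 ratio of −1.39. RAB33B, a Golgi RAB that binds the autophagy protein ATG16L1, had a log2 ratio of −0.89 (−1.12 to −0.65) and RAB43 one of −0.38 (−0.58 to −0.18; 0.22 at total count scaling). RAB2A, which acts between the ER and the Golgi, had 2107, 2155 and 2031 in the NO donor columns, against 3262, 3185 and 3090 in the control columns. The columns were separate, at a log2 ratio of −0.60 (−0.64 to −0.55), but at total count scaling the libraries were level at 0.00. RAB2B had 0.08 (−0.08 to 0.24), RAB6A, a RAB of Golgi to ER transport, 0.03 (−0.05 to 0.11) and RAB18, a RAB of the ER and lipid droplets, −0.07 (−0.14 to 0.01; 0.53 at total count scaling), each with overlapping columns. RAB1A, which controls ER to Golgi transport, was 42.2 with the NO donor and 26.1 for the control, and RAB1B had 5 counts with the NO donor and 6 for the control.

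Of the 9 measured late endosome and lysosome RABs 1, RAB29, was at least 2-fold higher at the size factors of the table, where 12.4% of all genes were, and 3 were at total count scaling (33.3%, against 32.5%). RAB29, which acts at the Golgi and lysosomes and binds the kinase LRRK2 (chromosome 9, 66448854 to 66458766), had normalized counts of 88.0, 94.1 and 78.1 in the NO donor columns, against 28.2, 29.2 and 30.2 in the control columns. It was 2.96-fold (2.29 to 3.87) higher, the largest increase of a RAB GTPase past the minimum. RAB7A, the main RAB of the late endosome, was 946 with the NO donor and 1144 for the control, giving a log2 ratio of −0.27 (−0.35 to −0.20) that turned to 0.32 at total count scaling. RAB7B had 0.46 (0.05 to 0.87), RAB9A, which returns receptors to the Golgi, 0.25 (0.12 to 0.38) and RAB24, an autophagy-related RAB, 0.57 (0.44 to 0.69). RAB34, a RAB of lysosome position and cilia, had −0.21 (−0.29 to −0.12), which turned to 0.39, while RAB12 and RAB36 had intervals that included 0, at −0.12 each and 0.47 each at total count scaling.

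RABs of lysosome-related organelles and regulated secretion had few counts. RAB38 and RAB27A, both known from melanosomes, had log2 ratios of −0.59 (−1.21 to 0.03; 0.00 at total count scaling) and −0.39 (−0.90 to 0.11; 0.20 at total count scaling). RAB32 had 14 counts with the NO donor and 2 for the control, and RAB27B had 23 with the NO donor and 2 for the control, below the minimum. Beside these, 4 of the 7 listed melanocyte markers had counts, summing to 151 to 229 over the NO donor columns and 124 to 159 over the control columns. MLANA had 49.8 with the NO donor and 4.01 for the control, while the log2 ratios of TYRP1, MITF and PMEL were −0.01, −0.16 and 0.02. TYR, DCT and SOX10 had no value here, and the part of such cells in these RAB values was not tested. RAB37, a RAB of secretory granules (chromosome 12, 6484535 to 6535665), had 30.1, 32.5 and 26.3 in the NO donor columns, against 83.4, 58.3 and 70.2 in the control columns. It was 2.37-fold (1.85 to 3.04) lower, or −0.65 in log2 ratio at total count scaling. RAB3D, also of secretory granules, had −0.81 (−1.09 to −0.53), against 0.26 (−0.05 to 0.57) for RAB3A, a RAB of synaptic vesicles in neurons.

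Of the remaining RABs, RAB42 (chromosome 6, 85603039 to 85605045) had normalized counts of 35.0, 33.3 and 37.8 in the NO donor columns, against 128, 124 and 117 in the control columns. It was 3.46-fold (2.81 to 4.28) lower and, with RAB30, stayed past 2-fold at total count scaling, at −1.20. RAB28 had −0.47 (−0.58 to −0.37), or 0.12 at total count scaling, RAB23, a regulator of hedgehog signalling, −0.17 (−0.31 to −0.03; 0.43 at total count scaling) and RAB40C, which joins a ubiquitin ligase, 0.16 (−0.13 to 0.45). RAB39B had −0.56 (−1.26 to 0.14; 0.03 at total count scaling), with overlapping columns. The other RABs below the minimum were sparse in both libraries. RAB33A had 21 counts with the NO donor and 9 for the control, RAB6B 28 with the NO donor and 14 for the control, and RAB39A 5 with the NO donor and 1 for the control. RAB40B had 25 with the NO donor and 22 for the control, RAB26 15 with the NO donor and 16 for the control, and RAB15 4 with the NO donor and 10 for the control.

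The genes that load and extract all RABs differed by less than 2-fold. RABAC1 (PRA1), which helps to release RABs from GDI at membranes (chromosome 6, 49933439 to 49936376), had the most counts of all members. Its normalized counts were 2590, 2599 and 2619 in the NO donor columns, against 4872, 4924 and 4878 in the control columns. The NO donor columns were about level with each other and far below the control columns, with a log2 ratio of −0.91 (−0.95 to −0.87), or −0.31 at total count scaling. GDI2 had −0.19 (−0.25 to −0.13), which turned to 0.41 at total count scaling. The escort proteins CHM and CHML had 0.24 (−0.04 to 0.53) and 0.28 (−0.01 to 0.58), and the transferase subunits RABGGTA and RABGGTB, outside the symbol rule, 0.33 (0.01 to 0.67) and −0.14 (−0.26 to −0.02; 0.46 at total count scaling).

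GAPs lay on both sides of the control, with 2 of 32 measured genes at least 2-fold higher (6.25%, against 12.4% of all genes), 3 at least 2-fold lower (9.38%, against 17.9%) and a median of 0.01 log2 units. At total count scaling 10 were at least 2-fold higher and none lower, 31.2% and 0% against 32.5% and 10.0% of all genes. TBC1D2 (Armus), a GAP of RAB7 (chromosome 1, 240001598 to 240049927), had normalized counts of 26.1, 33.3 and 37.8 in the NO donor columns, against 9.42, 13.4 and 7.56 in the control columns. It was 3.23-fold (2.08 to 5.18) higher, on 119 counts with the NO donor and 25 for the control. RAB3GAP1, the catalytic subunit of the RAB3 GAP complex that also acts as the GEF of RAB18 (chromosome 15, 16756368 to 16893148), had 327, 341 and 348 in the NO donor columns, against 147, 138 and 158 in the control columns. It was 2.29-fold (2.04 to 2.58) higher, whereas RAB3GAP2, the other subunit, stood at −0.13 (−0.26 to 0.01) at the scaling of the table and 0.47 at total count scaling. The columns of RAB3GAP1 were widely separate and those of RAB3GAP2 only narrowly.

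TBC1D16, a GAP of RAB4A (chromosome 12, 2384161 to 2460861), had 63.5, 63.3 and 63.3 in the NO donor columns, against 132, 147 and 139 in the control columns. It was 2.20-fold (1.86 to 2.61) lower, as RAB4A itself was lower. TBC1D8B (chromosome X, 87217327 to 87291054) had 27.7, 42.2 and 40.3 in the NO donor columns, against 74.0, 86.3 and 82.1 in the control columns and was 2.21-fold (1.77 to 2.77) lower. TBC1D2B (chromosome 7, 47839380 to 47927287) had 35.8, 26.8 and 27.1 in the NO donor columns, against 60.5, 66.8 and 73.5 in the control columns and was 2.25-fold (1.76 to 2.89) lower. In each of these 3 genes the columns of the libraries were separate, and at total count scaling the log2 ratios were −0.54, −0.55 and −0.58. TBC1D14, an autophagy regulator, and TBC1D4 (AS160), which controls transport of the glucose transporter GLUT4, came just short of 2-fold, at −0.98 (−1.18 to −0.77) and −0.94 (−1.25 to −0.64). TBC1D1, the paralogue of TBC1D4 in that route, had −0.06 (−0.26 to 0.15; 0.54 at total count scaling). RABGAP1L, TBC1D9, TBC1D24 and TBC1D17 lay above the control at 0.88, 0.77, 0.77 and 0.76. TBC1D5, which acts on RAB7 beside retromer, and TBC1D20, a GAP of RAB1, had intervals that included 0 at the size factors of the table. TBC1D10C, the GAP below the minimum, had 5 counts with the NO donor and 0 for the control.

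**Figure D3:**
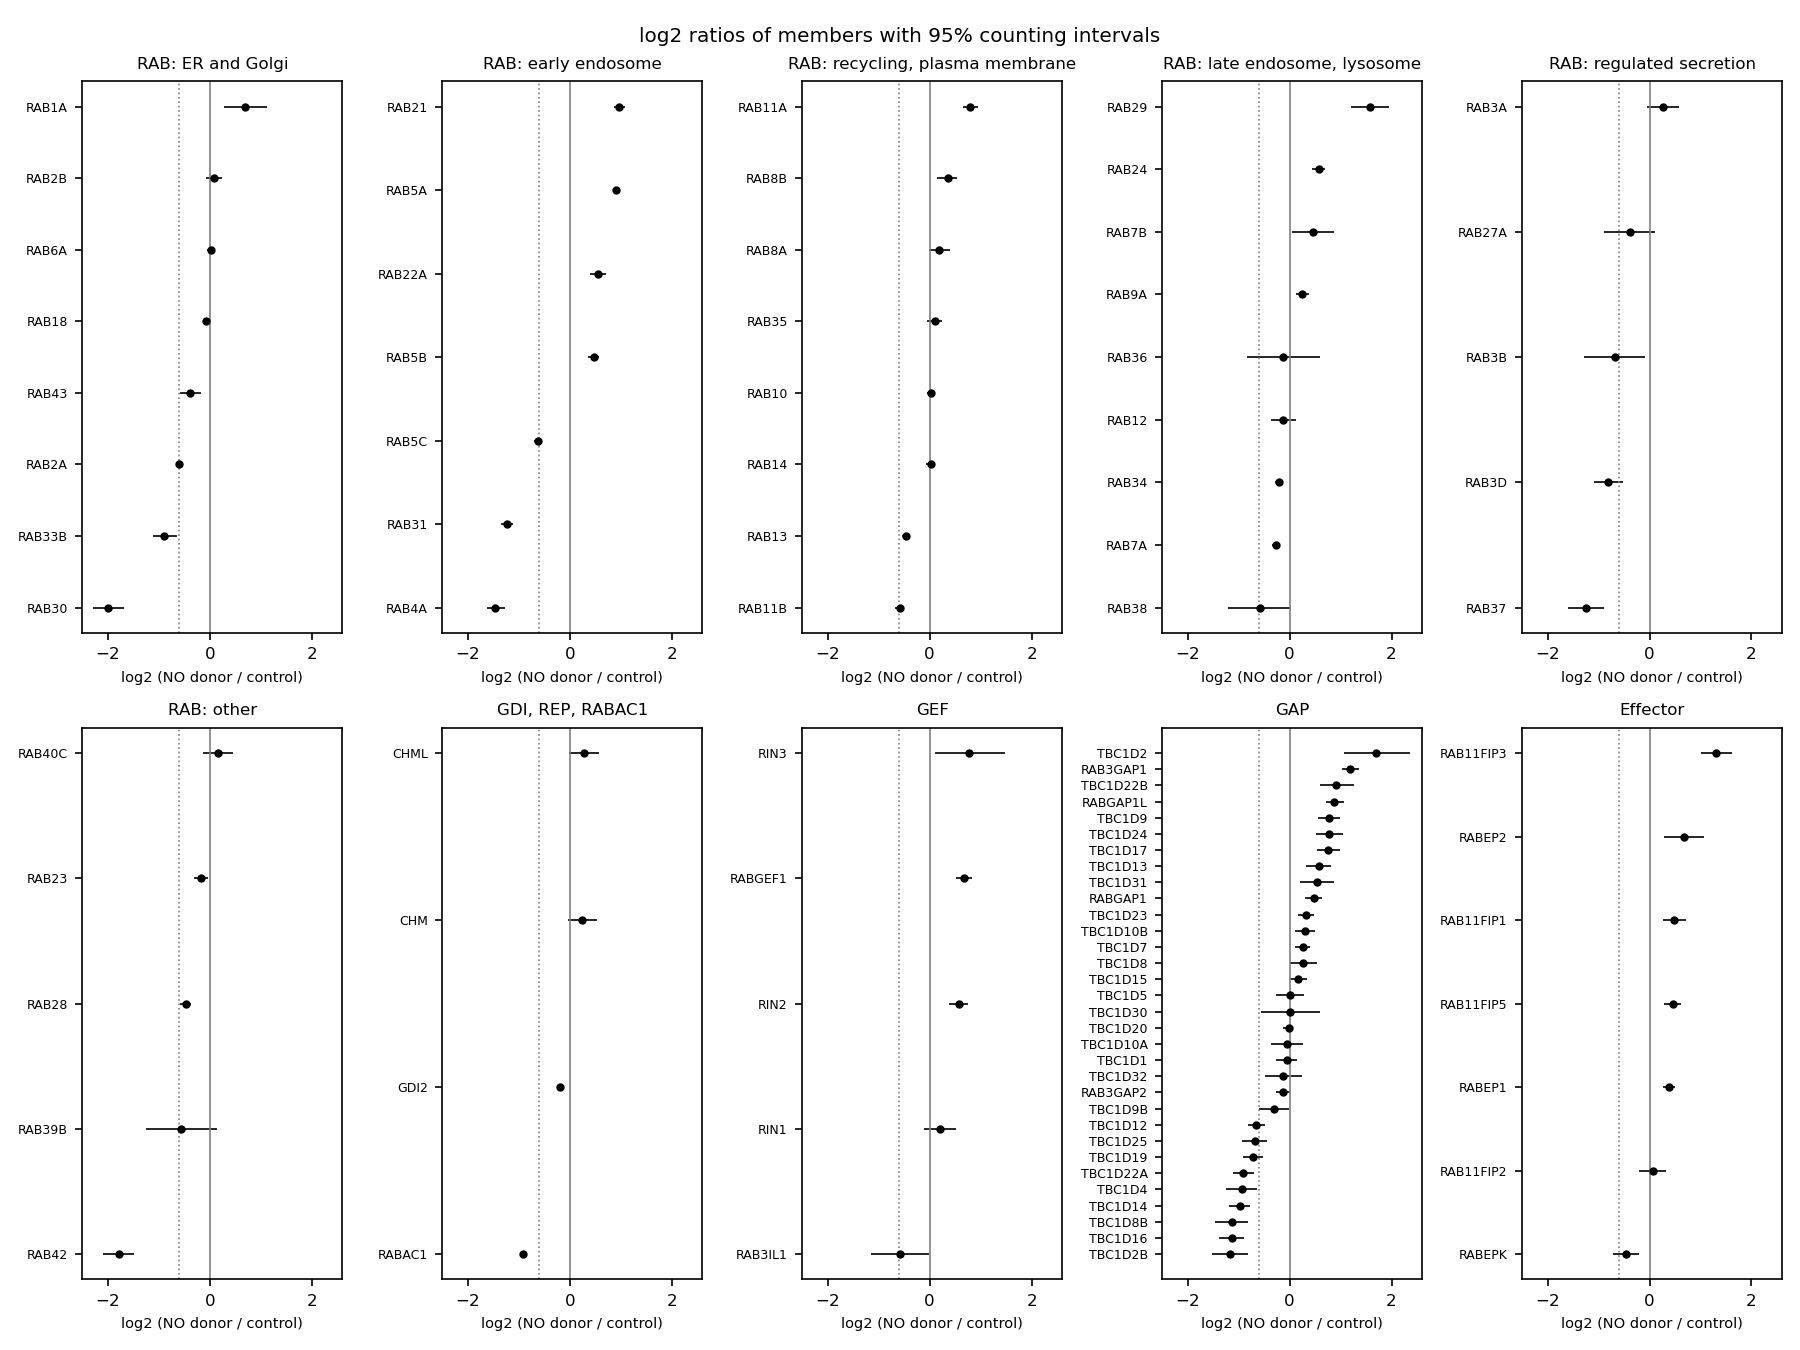
Log2 ratio of NO donor over control (horizontal axis) of 90 of the 91 measured members by role, with 95% counting intervals as bars. The solid line marks equal levels at the size factors of the table and the dotted line equal levels at total count scaling; early endosome RABs run from −1.46 for RAB4A to 0.97 for RAB21.

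Related genes often differed from each other, and the difference between their log2 ratios does not depend on the scaling of the libraries. Every pair of measured members with the same symbol up to a final letter was compared, 16 pairs from 12 stems. The log2 ratios had opposite signs in 12 pairs at the size factors of the table and in 8 at total count scaling. Members of the RAB3 and RAB5 stems recur in several pairs. RAB2B, RAB3A and TBC1D10A, each in a pair with opposite signs, had intervals of their own that included 0 at the size factors of the table. No share over pairs of unrelated genes was taken, so whether related genes differ more or less than others was not tested. They differed by at least 1 log2 unit in 8 pairs, and the exact 95% interval of the difference, which covers counting error only, included 0 in 3. The widest gap was between TBC1D2 and TBC1D2B, at 2.86 log2 units (2.12 to 3.63), followed by TBC1D22B over TBC1D22A at 1.82 (1.43 to 2.22). RAB5A stood 1.53 (1.42 to 1.64) above RAB5C, TBC1D8 1.40 (0.99 to 1.82) above TBC1D8B, RAB11A 1.39 (1.21 to 1.56) above RAB11B and RAB5B 1.09 (0.95 to 1.23) above RAB5C. TBC1D9 stood 1.08 (0.72 to 1.44) above TBC1D9B and RAB3A 1.07 (0.64 to 1.49) above RAB3D. RAB8A and RAB8B differed by 0.16 (−0.12 to 0.45), TBC1D10A and TBC1D10B by 0.34 (−0.03 to 0.71) and RAB3B and RAB3D by 0.13 (−0.54 to 0.80), so no difference was detectable at this depth.

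How far reads could be shared between such relatives was read from their annotated transcripts. The coding sequences of RAB5A and RAB5C were 73.3% identical and those of RAB11A and RAB11B 75.6%. The longest run of bases that the transcripts of a pair had in common was 14 for RAB5A and RAB5C and 20 for RAB11A and RAB11B, and over all 16 pairs it ran from 14 to 38, the longest in RAB5B and RAB5C.

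**Figure D4:**
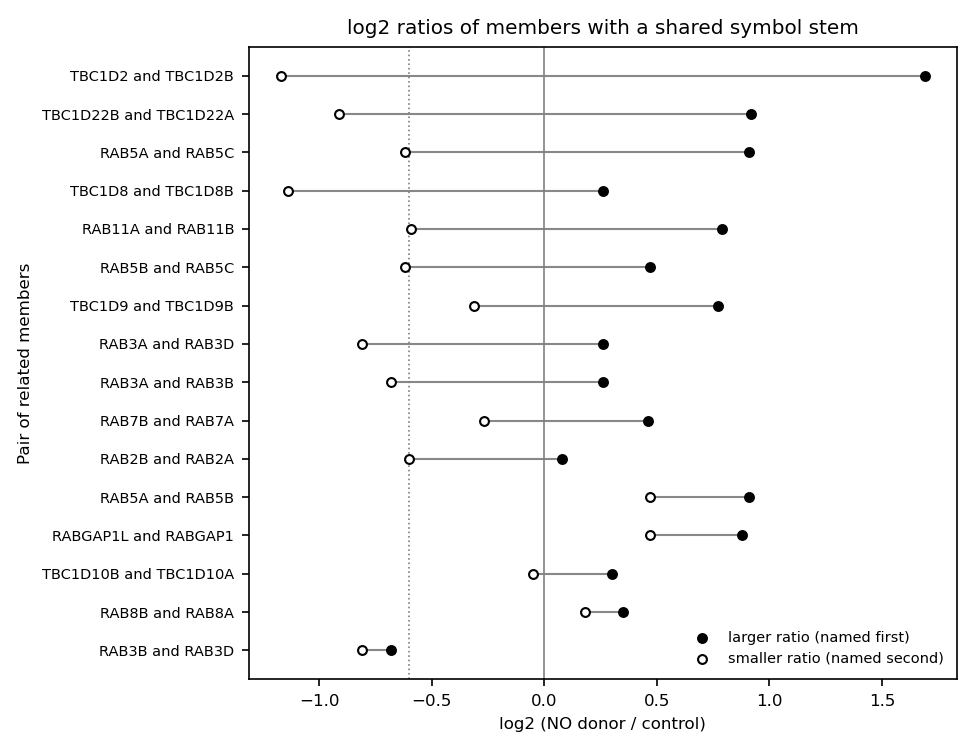
Log2 ratio of NO donor over control (horizontal axis) for both members of each of the 16 pairs with a shared symbol stem, the larger ratio as a filled point and the smaller as an open one, joined by a line. The solid and dotted lines mark equal levels at the size factors of the table and at total count scaling; the line of TBC1D2 and TBC1D2B spans 2.86 log2 units.

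The start regions of the members were read for short motifs. Windows are shown for RAB5A and RAB31 because both, described above, carry the E-box CACGTG, the core of the site bound by the lysosome and autophagy regulator TFEB and by other E-box factors. Each window holds 250 bases before and 50 bases from the annotated gene start, written 5′ to 3′ on the gene's strand with the E-box in capitals.
RAB5A: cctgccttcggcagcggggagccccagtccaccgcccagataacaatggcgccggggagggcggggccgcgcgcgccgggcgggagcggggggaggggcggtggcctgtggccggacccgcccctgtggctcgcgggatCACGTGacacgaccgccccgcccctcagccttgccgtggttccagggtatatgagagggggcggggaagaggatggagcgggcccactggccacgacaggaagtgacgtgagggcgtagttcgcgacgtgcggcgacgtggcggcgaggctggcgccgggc
RAB31: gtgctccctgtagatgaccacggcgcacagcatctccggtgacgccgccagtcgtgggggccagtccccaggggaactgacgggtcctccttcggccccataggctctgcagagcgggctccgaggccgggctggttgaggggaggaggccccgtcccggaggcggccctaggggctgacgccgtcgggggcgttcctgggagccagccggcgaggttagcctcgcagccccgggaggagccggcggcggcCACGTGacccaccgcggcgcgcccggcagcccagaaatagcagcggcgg
The windows lie at chr13:6905052-6905351 on the plus strand and chr6:98385808-98386107 on the minus strand of Sscrofa11.1. The motif stood in the window of a gene above the control (RAB5A) and of one below it (RAB31). Over both strands, CACGTG was in 14 of 91 measured members, 15.4%, and in 7.65% of the 20638 protein-coding windows. Those windows also take in genes that were not measured here, and base composition was not matched. The shares of members and of all windows are therefore of unlike sets, and enrichment was not tested. It was in 1 of the 4 members at least 2-fold higher and in 1 of the 8 at least 2-fold lower. The cAMP response element TGACGTCA was in 6 members, 6.59%, against 2.17% of all windows, the antioxidant response core TGANNNNGC in 40.7% against 40.4%, and the GC box GGGCGG in 67.0% against 48.9%. None of the 4 motifs was masked for overlap with another. A match is only a run of letters, and no binding was measured here.

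The other genes of RAB control and vesicle transport, taken from lists chosen with earlier results of these data known, had 246 measured members, of which 28 were at least 2-fold higher and 17 lower, 11.4% and 6.91% against 12.4% and 17.9% of all genes. Their median was 0.02 log2 units. At total count scaling 76 were higher and 4 lower, 30.9% and 1.63% against 32.5% and 10.0%. The shares of each list below are to be read against the same 12.4% and 17.9%. Among 37 RAB activators outside the symbol rule 8 were higher (21.6%) and 4 lower (10.8%). SMCR8, a subunit of the C9orf72 complex, was at 180 with the NO donor and 42.1 for the control, giving a log2 ratio of 2.10 (1.80 to 2.41), while WDR41 of the same complex had −1.04 (−1.27 to −0.81). TRAPPC13 of the TRAPP tethering complex had 1.66 (1.46 to 1.86), and DENND6B, a DENN domain GEF, −1.18 (−1.49 to −0.88). Of 7 other TBC domain GAPs 1 was at least 2-fold higher (14.3%) and none lower. EVI5 and SGSM3 had 0.45 (0.32 to 0.57) and 0.45 (0.19 to 0.71), and USP6NL, a GAP of RAB5, 0.24 (0.06 to 0.41). Of 35 further RAB effectors 2 were higher (5.71%) and 3 lower (8.57%), with MICALL1, which binds RAB8 and RAB35, at 1.65 (1.44 to 1.86), APPL2, a RAB5 effector, at −1.42 (−1.68 to −1.16) and SYTL2, a RAB27 effector, at −1.12 (−1.40 to −0.84).

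The ESCRT genes, which sort ubiquitinated cargo into late endosomes, were at least 2-fold higher in 5 of 29 and lower in none, 17.2% higher against 12.4% of all genes and 0% lower against 17.9%, with a median of 0.33. At total count scaling 14 were higher, 48.3% against 32.5%. VPS37A was at 504 with the NO donor and 206 for the control, giving a log2 ratio of 1.29 (1.15 to 1.44), STAM had 1.17 (1.01 to 1.34) and CHMP7 1.10 (0.89 to 1.31). Of 47 SNAREs and fusion factors 5 were at least 2-fold higher (10.6%) and 4 lower (8.51%), with a median of 0.00. STX16, a SNARE of the trans-Golgi network, had 1.09 (0.90 to 1.27), BNIP1, an ER SNARE, 1.08 (0.86 to 1.31) and STX2, a plasma membrane SNARE, −1.69 (−1.85 to −1.53). STX3 and STXBP6, whose means lay under 50, were chosen after their values were seen. STX3 had the largest ratio, at 67.2 with the NO donor and 4.82 for the control, 3.80 log2 units (2.97 to 4.77). STXBP6 had the smallest, at 4.08 with the NO donor and 36.1 for the control, −3.15 log2 units (−4.04 to −2.35).

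Of 20 HOPS, CORVET and retromer genes, which tether and recycle at late endosomes, 1 was higher and none lower. VPS39 had 1.08 (0.83 to 1.34), VPS18 0.82 (0.53 to 1.11) and SNX5 −0.82 (−0.89 to −0.75), which became −0.22 at total count scaling. No exocyst subunit of 9 passed 2-fold at the size factors of the table. EXOC3 came closest at 0.99 (0.80 to 1.18), with EXOC5 at 0.68 (0.56 to 0.80) and EXOC7 at −0.85 (−1.07 to −0.63). At total count scaling 3 of the 9 were at least 2-fold higher, 33.3% against 32.5% of all genes, and none lower, 0% against 10.0%. Of 32 clathrin and adaptor genes 4 were at least 2-fold higher (12.5%) and 3 lower (9.38%). AP3S2 had 1.62 (1.40 to 1.86), GGA1 1.27 (1.06 to 1.48) and AP1S2 −1.04 (−1.16 to −0.93). Of 30 genes of the ARF family and its regulators 2 were higher (6.67%) and 3 lower (10.0%). ARF5 had −1.38 (−1.67 to −1.09) and ARFGAP3, a GAP of ARF1 at the Golgi, −1.37 (−1.45 to −1.29).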

How the data were processed

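Single-cell RNA libraries of pig valve interstitial cells were compared from the authors' deposited table of NO donor against control; Cell Ranger, DESeq2, Seurat 3.0 and the Sscrofa11.1 build appear, with no roles, in the submitters' processing notes. Cell filters, doublet treatment and gene annotation are not given in the sources used here. The 6 columns and their mean hold signal values, deposited after division by a size factor of the column, as the headers and values show: 100% of values in each column were whole multiples of 1 step within 0.01, and the whole counts were recovered. The deposited log2 fold change and its error, the Wald score, and the p-value and adjusted p-value were made by the authors, per the file headers, with DESeq2.

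Counts were summed per library and divided by the summed size factors (1.23, 1.23 and 1.22 for the NO donor columns, 0.743, 0.823 and 0.926 for the control columns). Log2 ratios carry exact binomial (Clopper-Pearson) 95% intervals conditional on the summed count, and levels carry none. Differences of paired log2 ratios carry exact conditional intervals of the odds ratio. A library with 0 counts was given a floor of 3 counts for counting calls; no ratio is printed for such a gene. A gene was called by size at 1 log2 unit, with a mean of at least 10. Python 3.11.15, scipy 1.17.1, R 4.3.3 and edgeR 4.0.16 were used, and the steps were tested on simulated data. The edgeR quasi-likelihood test with the columns taken as if they were replicates had an adjusted p below 0.05 for 10003 of 14804 rows and 66 of 105 members. In the authors' deposited DESeq2 results 49 of the 103 members with a value were below 0.05, and the count over all rows is not given here. Both rest on the columns and neither tests the treatment.

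All 105 symbols matched the RefSeq annotation of Sscrofa11.1, which gave gene spans, coding sequences (curated model first, then the longest) and start windows. Members and lists were chosen with earlier results of these data known. Named genes were the members past 2-fold and the 5 with the most counts (RABAC1, RAB2A, GDI2, RAB5A and RAB13). From each other list up to 3 genes with the largest ratios at a mean of at least 50 were named. Other members named by role, the paralogue pairs, WDR41, STX3, STXBP6, RAB-like genes and the motifs were added after values were seen. Alternatives were total count and TMM scaling, the authors' fold change, other minimums and sizes, and leaving out each column. Values of 1 measured member and of 1 further gene, and 1 start window, are not reported here; all stay in the counts and medians.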

Additional observations from a re-analysis of the deposited data

How the results depend on the processing

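At total count scaling the members at least 2-fold higher numbered 26 and those lower 2, and the median log2 ratio became 0.61; at TMM scaling the median was 0.06. With the minimum lowered so that 103 of the 105 members were taken in, 7 were higher and 10 lower. The share over all genes at that setting is not given here. At a size of 0.5 log2 units 21 were higher and 24 lower, where 28.4% and 29.9% of all genes were. The mean log2 ratio was −0.03 in place of the median of 0.02. Leaving out 1 column at a time gave 4 to 5 higher, 8 to 9 lower and a median of −0.03 to 0.04. The cause of these shifts was not tested, except that scaling adds a constant to every log2 ratio, 0.60 at total count and 0.04 at TMM scaling. All other settings kept the counts within 1.5 times. None of the 17 named members past 2-fold or among the 5 most abundant left its counting interval when a column was left out; at total count scaling 16 of 17 did, and at TMM scaling 1 did. With 1 library per group, variation between cultures was not measured. No paired analysis was possible because the labels give 1 library per group and no replicate numbers.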

Other observations

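RAB-like genes outside the symbol rule, chosen after their values were seen, also lay on both sides of the control. RABL2B, a RAB-like GTPase of cilia, was at 46.0 with the NO donor and 17.3 for the control, giving a log2 ratio of 1.41 (0.92 to 1.93). RABL6 had 0.27 (−0.01 to 0.55), RABIF, a chaperone of RABs, −0.06 (−0.22 to 0.11; 0.54 at total count scaling), and RABL3 −0.41 (−0.65 to −0.17), which turned to 0.18 at total count scaling.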
